A study of Homo sapiens with 3 samples.

Results

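The array described here measured total RNA of parental HSC-3 cells, a cell line from a squamous cell carcinoma of the human tongue. It is 1 of 3 arrays of the study and was chosen by its label, which gives no shRNA. The parental cells carried no lentiviral vector and were grown in DMEM with fetal bovine serum and without puromycin. The other arrays, of cells with a scrambled shRNA and with an shRNA against DKK3, are not compared here. Amplified RNA carried the dye Cy5, and the array was read in 1 colour. With 1 array of 1 line there is no replicate, so no test was made, no error between cultures can be given, and every value below describes this array.

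The tongue is covered by stratified squamous epithelium. Its basal cells divide, adhere to the basement membrane through hemidesmosomes and make the keratins KRT5 and KRT14. Cells that leave the basal layer switch to other keratin pairs and later to proteins of the cornified envelope. Injured squamous epithelium makes KRT6, KRT16 and KRT17, and simple epithelium makes KRT18 and KRT19. Squamous carcinomas keep part of this programme, and many also make proteases, cytokines and mesenchymal proteins such as vimentin.

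The array held 24457 usable gene probes, and 17586 genes had a symbol. A gene was given the value of its brightest probe. Levels are the authors' deposited normalised intensity, a linear scale on which the median probe of the array is 25. The quartiles were 6.84 and 110, and the highest value was 24961. A spot was called above the blanks where its brightness exceeded the mean of 2680 blank spots plus 2 SD, which equals 3.04 on the deposited scale. By this rule 19187 gene probes (78.5%) and 14394 genes (81.8%) lay above the blanks, so being above them is the usual state of a gene here. With the second deposited intensity column subtracted as a background, 9506 of the 17586 genes did. Counts of list members under that column are to be read beside this count, not beside 81.8%. Of the blank spots themselves, 30 (1.12%) exceeded the limit. The 20 genes just inside the limit had levels of 3.04, and the 20 just outside had 2.98 to 3.04.

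A stricter yardstick came from genes that epithelial cells rarely use. Of 384 olfactory receptor genes, the odour sensors of the nose, 178 (46.4%) lay above the blanks (89 with the second deposited column subtracted), so light above the blanks is common even in this family. The 95th percentile of the family was 27.8, and 8420 of all genes (47.9%) lay above it. The text calls this the olfactory receptor limit, and it was chosen after the data were seen. Levels over 100 were held by 4703 genes (26.7%), and levels over 1000 by 703 (4%).

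Brightness also depends on the probe, so a place in the order is a place of a probe and not of a transcript's abundance. GAPDH, an enzyme of glycolysis, had a probe at 14516 and another at 60.5. UBB, which encodes ubiquitin, had probes at 9778 and 8.02. Among 2500 genes with several probes, the brightest exceeded the dimmest by a median of 2.15-fold and by 11-fold at the 90th percentile. Some probes for abundant transcripts were dim, such as those for the ribosomal proteins RPS19 at 6.67 and RPS20 at 10.2. A low level therefore does not show that a transcript was scarce. Spot to spot, 24 copies of each of the positive controls had SDs of 0.10 and 0.13 (log2) at their own brightness, and the blank spots had an SD of 2.08 in units of spot brightness.

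**Figure D1:**
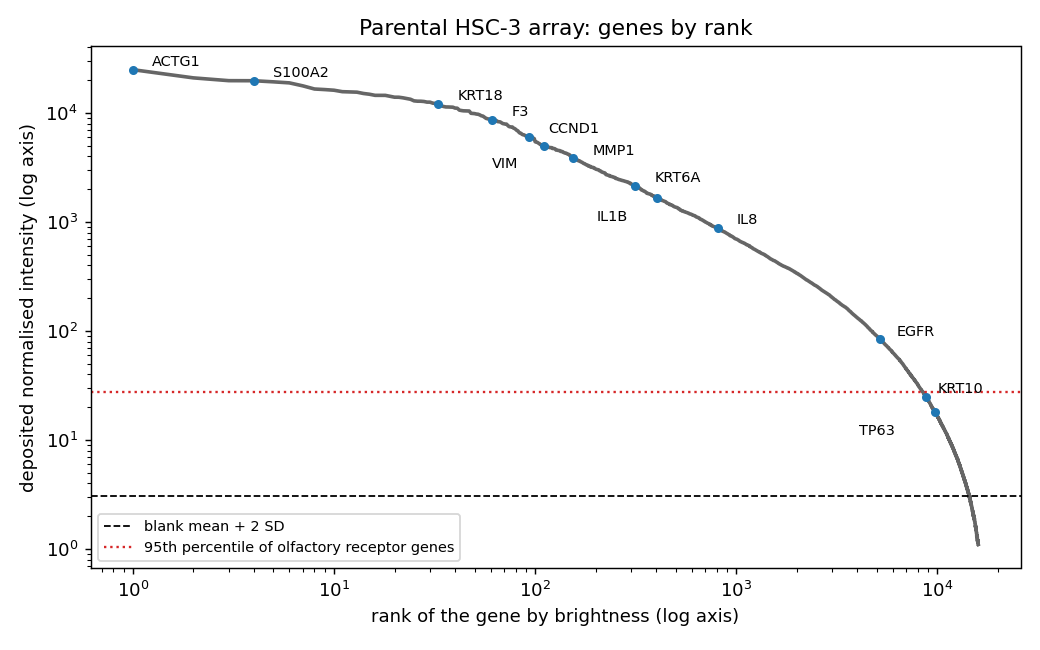
Genes of the parental HSC-3 array in order of brightness. The x axis is the rank and the y axis the deposited normalised intensity, both log axes, with the blank limit dashed at 3.04 and the olfactory receptor limit dotted at 27.8. Named genes run from ACTG1 at 24961 to TP63 at 18.1, which lies between the limits.

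The brightest genes encoded the cytoskeleton, the ribosome, metal binding and glycolysis, together with a squamous calcium-binding protein. ACTG1, a cytoplasmic actin, led at 24961. MT2A, a metallothionein that binds zinc and copper, followed at 20992, and RPS29, a ribosomal protein, at 19791. S100A2, a calcium-binding protein of basal squamous cells, held the fourth place at 19762. NPM1, a nucleolar chaperone, stood at 17736, TMSB10, which binds actin monomers, at 15685, and FTL, the light chain of the iron store ferritin, at 15615. 
Ribosomal protein genes made up 38 of the 100 brightest genes. All 66 measured ribosomal protein genes lay above the blanks, beside 81.8% of all genes, and 50 exceeded 1000, beside 4% of all genes. Their median was 7929. Under the second deposited column as a background, 50 of the 66 lay above the blanks, beside 9506 of 17586 genes. Besides RPS29 the brightest were RPS2 at 19305, RPS24 at 16595, RPL6 at 16392, RPL35 at 16172 and RPLP1 at 15101. Another 10 of the 100 were annotated as pseudogenes, among them RPL6P27 at 18889 and RPS16P10 at 14860. A probe for such a near-identical copy can bind the RNA of the parent gene, so these values cannot be given to the pseudogenes. The 100 brightest genes held 27.9% of the spot brightness above the blank mean, summed over the brightest probes of genes with a symbol. Probes without a symbol were left out of that sum. The level of the last of the 100 genes was 5451.

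Glycolysis and the cytoskeleton were bright as groups. All 21 measured glycolysis genes lay above the blanks and 18 exceeded 100, beside 81.8% and 26.7% of all genes. Under the second deposited column as a background, 15 lay above the blanks, beside 9506 of 17586 genes. ENO1 (enolase) stood at 15522, LDHA (lactate dehydrogenase) at 12819, LDHB at 5451, ALDOA (aldolase) at 4703 and the glucose transporter SLC2A1 at 1750. All 33 cytoskeleton genes lay above the blanks (24 with the second deposited column subtracted), beside 81.8% of all genes, with a median of 1295. TUBA1B, an alpha tubulin, stood at 9428 and CFL1 (cofilin), which severs actin filaments, at 8146, whereas TAGLN, an actin-binding protein of smooth muscle, stood at 6.32. Other named genes of the top were TPT1 at 12576, ACTB at 11473, HSPA8, a heat shock chaperone, at 11351, PPIA at 11319 with a second probe at 351, OAZ1, an inhibitor of polyamine synthesis, at 11299 and the calmodulin gene CALM2 at 11087.

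Markers of squamous epithelium mostly stood above the middle of all genes. Of the 14 measured genes of the squamous panel, all lay above the blanks and 12 (85.7%) above the olfactory receptor limit. The shares of all genes were 81.8% and 47.9%. The panel had a median of 170 at a median percentile of 80.5. SFN (stratifin), a 14-3-3 protein of squamous cells, stood at 6141 and KRT5 at 4989. TP63, the transcription factor that specifies basal squamous cells, stood at 18.1 (percentile 44.8, or 24.2 with the second deposited column subtracted). DSC3, a desmosomal cadherin, stood at 11.2. These are the members below the olfactory receptor limit, and each was read by a single probe.

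Keratins divided by type. All 3 basal keratins were bright, with KRT5 at 4989 (percentile 99.4), its partner KRT14 at 2937 (percentile 98.8) and KRT15 at 277, where the second probe gave 155. The wound and stress keratins ran from KRT6A at 2146 and KRT17 at 1122 through KRT6C at 215 and KRT16 at 82.3 to KRT6B at 33.5 and KRT75 at 4.8. KRT6A, KRT6B and KRT6C are near-identical, so their probes may share signal. Of 7 keratins listed for simple epithelium, 6 were measured, and KRT8 was not among those. KRT18 and KRT19 were bright, at 12108, the highest of the 50 measured keratins, and at 1187. KRT80 stood at 126 and 3.57 by its probes, KRT7 at 53.2 and KRT20, a keratin of gut epithelium, at 10.9, and KRT23 had no deposited value. Thus KRT5 and KRT14 of basal cells and KRT18 and KRT19 of simple epithelium were bright on the same array.

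The keratins of cells that have left the basal layer mostly stood near the middle of all genes or under it. Among 12 suprabasal keratins, 10 (83.3%) lay above the blanks and 2 (16.7%) above the olfactory receptor limit. The shares of all genes were 81.8% and 47.9%. The suprabasal median was 16.2 at a median percentile of 42.8. KRT10, of the spinous layer of skin, stood at 24.9 (percentile 50.2). Its partner KRT1 stood at 2.81 (percentile 17.4), which is not above the blanks. KRT4 and KRT13, the pair of the moist lining of mouth and esophagus, stood at 17.2 and 11.9. The exceptions were KRT12, a keratin of the cornea, at 1002 and its partner KRT3 at 157. Of 23 hair keratins, 18 (78.3%) lay above the blanks (10 with the second deposited column subtracted) and 3 (13%) above the olfactory receptor limit. KRT71 was highest at 126.

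The keratin genes lie in a cluster of type I genes on chromosome 17 and a cluster of type II genes, with KRT18, on chromosome 12. On chromosome 17, 19 of 25 measured keratins lay above the blanks and 6 above the olfactory receptor limit, and 4 exceeded 1000. On chromosome 12 the counts were 23 of 25, 11 and 3. Bright and dark genes therefore stood within the same cluster. Keratins with no deposited value were KRT23, KRT24, KRT25, KRT27 and KRT28. Over all 50 keratins, 42 (84%) lay above the blanks and 17 (34%) above the olfactory receptor limit. The shares of all genes were 81.8% and 47.9%. The median of the keratins was 11.4 at a median percentile of 36.9.

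**Figure D2:**
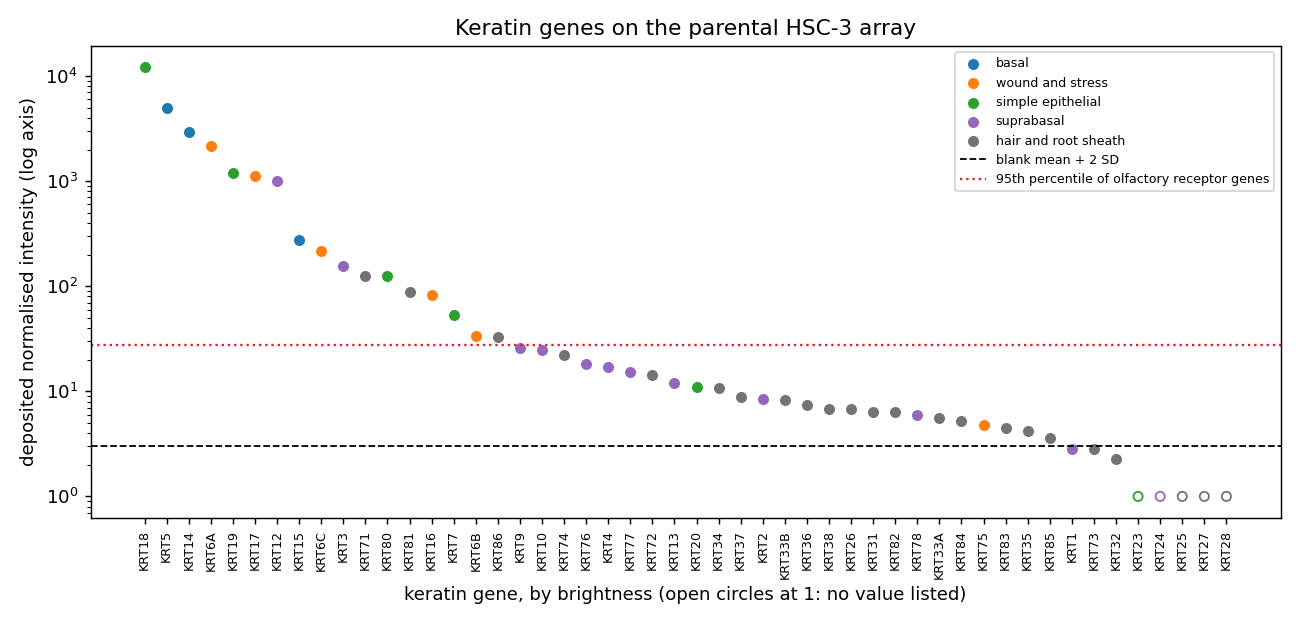
Keratin genes of the parental HSC-3 array in order of brightness. The y axis is the deposited normalised intensity on a log axis, with a point for each gene coloured by type, and open circles at 1 mark genes with no listed value. KRT18, KRT5 and KRT14 lead at 12108, 4989 and 2937, and KRT10 and KRT13 lie below the dotted olfactory receptor limit at 27.8.

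Transcription factors of squamous epithelium had middling levels. Of 21 measured, 20 (95.2%) lay above the blanks and 12 (57.1%) above the olfactory receptor limit, beside 81.8% and 47.9% of all genes. Their median was 33.5 at a median percentile of 55.3. KLF5, a factor of proliferating epithelium, led at 486, followed by PITX1 at 318, TRIM29 at 198, SOX15 at 143 and OVOL2, a repressor of mesenchymal genes, at 112. TFAP2C stood at 51.7. Factors tied to differentiation spread over both sides of the olfactory receptor limit, with EHF at 44.5, KLF4 at 37.2 and ELF3 at 29.9, GRHL1 at 7.1, ZNF750 at 5.0 and no deposited value for GRHL3. SOX2, a stem cell factor of the foregut, stood at 11.5.

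Genes of basement membrane adhesion differed by list. All 9 measured genes of hemidesmosomes and their laminin lay above the olfactory receptor limit, beside 47.9% of all genes. Their median was 165 at a median percentile of 80.2. Under the second deposited column as a background, 8 lay above the blanks. LAMB3, a chain of the laminin that hemidesmosomes bind, stood at 4509, ITGA6, its integrin receptor subunit, at 971 and 358 by its probes, PLEC1 (PLEC, plectin) at 933 and the tetraspanin CD151 at 359. COL17A1 (142), COL7A1 (140), LAMA3 (53.3, percentile 62.9) and ITGB4 (40.1, percentile 58.4) were lower. Among 17 integrin subunits, 15 (88.2%) lay above the blanks and 6 (35.3%) above the olfactory receptor limit, beside 81.8% and 47.9% of all genes. Subtracting the second deposited column left 7 above the blanks, beside 9506 of 17586 genes. The median percentile of the integrin subunits was 45.9, and ITGA3 stood at 19.3. ITGB1, the shared beta subunit, stood at 2397, ITGA2 of the collagen receptor at 388 and ITGA5 of the fibronectin receptor at 246, whereas ITGB6 stood at 5.9 and ITGA8 had no deposited value.

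Of 28 cell junction genes, 27 (96.4%) lay above the blanks and 21 (75%) above the olfactory receptor limit, beside 81.8% and 47.9% of all genes. EPCAM, an adhesion protein of simple epithelia and carcinomas, was highest at 1927. Next came CTNNA1 (alpha-catenin) at 881, CLDN7 at 653, CDH3 (P-cadherin) at 614 and F11R at 567. CDH1 (E-cadherin) stood at 87.0 (percentile 71.0). Desmosomal cadherins stepped from DSG2 at 192 through DSG3 at 69.8 to DSG1 at 3.04, just above the blanks, and DSC1 was not above them. DSG1 and DSC1 belong to the upper layers of the epidermis.

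The genes listed for the cornified layer were uneven. Among 39 measured, 31 (79.5%) lay above the blanks and 18 (46.2%) above the olfactory receptor limit, near the 81.8% and 47.9% of all genes. With the second deposited column subtracted, 18 lay above the blanks, beside 9506 of 17586 genes. The median was 25.2, and 7 exceeded 1000. Those 7 were CSTA, the annexin ANXA1 and S100 genes, led by S100A2, named above as a protein of basal cells, at 19762. CSTA (cystatin A), a protease inhibitor of the envelope, stood at 1923, S100A16 at 1345, CST6 at 970 and S100A14 at 582. SPRR1A stood at 198, KRTDAP at 194 and SPRR2D at 141, IVL (involucrin), an early envelope protein, at 39.8 and SPRR1B at 25.2. TGM1, the enzyme that crosslinks the envelope in skin, stood at 3.8 and TGM3 at 7.6. FLG (filaggrin), FLG2, HRNR, LOR (loricrin) and TGM5 had no deposited value. SPRR3, of the oral mucosa, stood at 1.81 and was not above the blanks.

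Most of these genes share a stretch of chromosome 1, the epidermal differentiation complex. Its S100 genes had a median of 90.3, with 14 of 16 above the blanks, beside 81.8% of all genes, and 6 over 1000. S100A6 stood at 10623, S100A10 at 7524 and S100A11 at 6091, whereas the inflammatory pair S100A8 and S100A9 stood at 6.08 and 28.6. Small proline-rich genes had a median of 53.6 over 7 members and late cornified envelope genes 10.0 over 18. The fused S100-type genes, FLG among them, had 2 of 6 above the blanks and a median of 1.57. Kallikreins, proteases that release surface cells, had 13 of 15 (86.7%) above the blanks and 4 (26.7%) above the olfactory receptor limit. The shares of all genes were 81.8% and 47.9%. With the second deposited column subtracted, 8 kallikreins lay above the blanks, beside 9506 of 17586 genes. KLK5 was highest at 300.

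**Figure D3:**
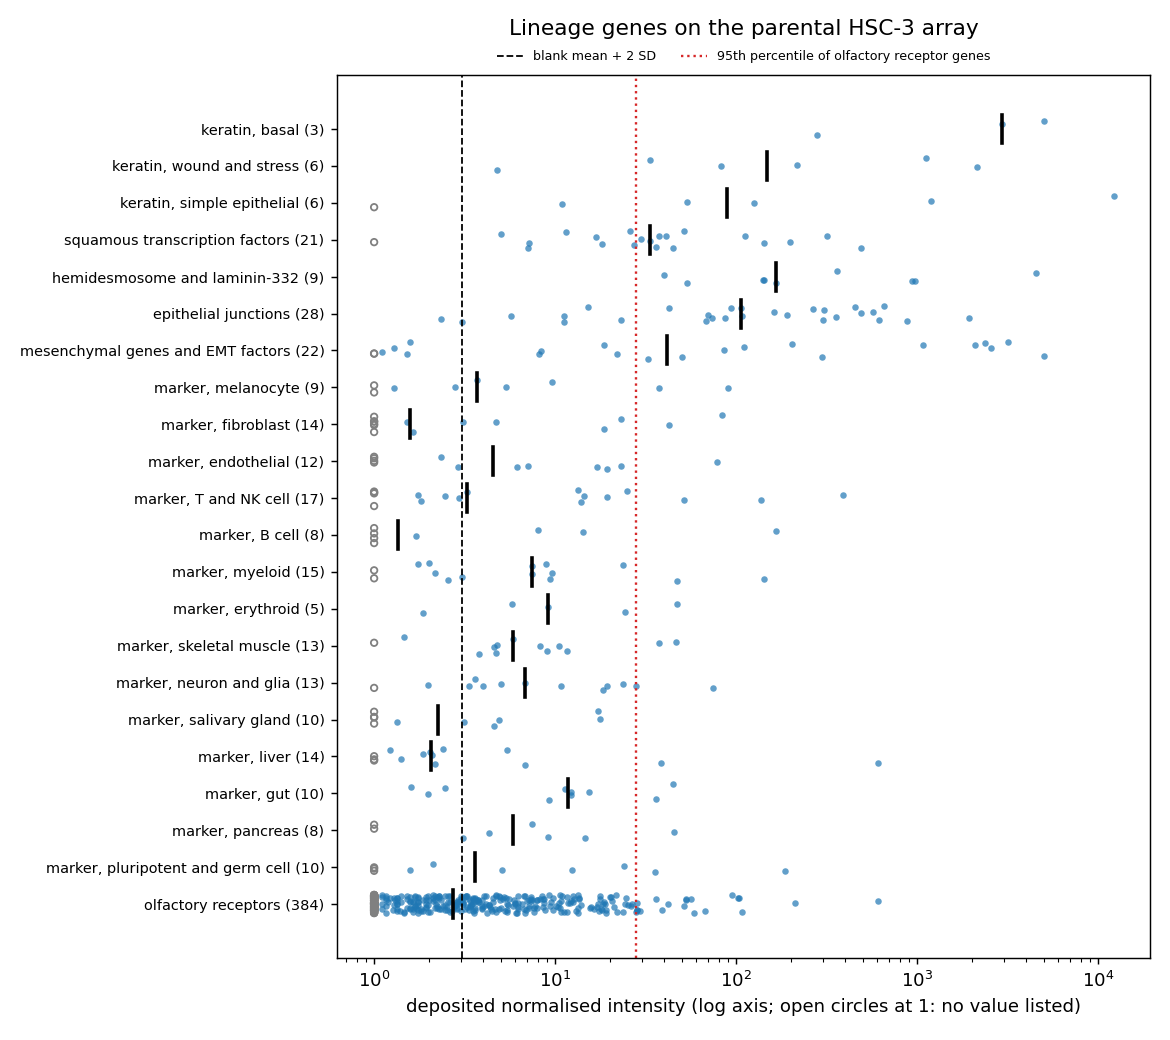
Lineage gene lists on the parental HSC-3 array. The x axis is the deposited normalised intensity on a log axis, each point is a gene, the black bar is the list's median with unlisted values counted at 1, and the dashed and dotted lines are the blank limit (3.04) and the olfactory receptor limit (27.8). KRT5, KRT18, LAMB3 and VIM exceed 1000. No member of the 14 marker lists of other cell types does, SERPINA1 being highest at 602. VIM belongs to the mesenchymal list, which is not among those 14.

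Mesenchymal genes were split. Of 22 measured, 16 (72.7%) lay above the blanks and 12 (54.5%) above the olfactory receptor limit, beside 81.8% and 47.9% of all genes. Levels over 1000 were held by 6. VIM (vimentin), the intermediate filament of mesenchymal cells, stood at 5006, beside KRT5 at 4989. LGALS1 (galectin-1) stood at 3174, SPARC, a matrix glycoprotein, at 2553, TGFBI at 2375 and the receptor kinase AXL at 2086. SNAI2 (Slug), a repressor of epithelial cadherins, stood at 1080. Of the other factors of that kind, TWIST1 stood at 32.7 and 17.5 by its probes, ZEB2 at 8.1 and SNAI1 at 1.6, which is not above the blanks, and ZEB1 had no deposited value. CDH2 (N-cadherin) stood at 8.4 and FN1 (fibronectin) at 204.

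Receptor tyrosine kinases stood near the middle of all genes or a little under it. Of 48, 35 (72.9%) lay above the blanks and 18 (37.5%) above the olfactory receptor limit, beside 81.8% and 47.9% of all genes. Their median was 18.5 at a median percentile of 45.2, and 1 member of this list exceeded 1000. That member was DDR1, a collagen receptor, at 1256, with its second probe at 55.5. The receptor kinase AXL, at 2086, was counted with the mesenchymal genes and not in this list. EPHA2, an ephrin receptor, stood at 337, MET, the receptor of hepatocyte growth factor, at 175, EPHB4 at 123 and MST1R at 119. EGFR, the receptor of epidermal growth factor, stood at 84.0 (percentile 70.5), ERBB3 at 41.8 and ERBB2 at 19.5 (percentile 46.1). ERBB4, PDGFRA, ALK, TEK, MERTK, EPHA4 and EPHB1 had no deposited value, and RET, FLT1, FLT3, EPHA3, EPHA5 and INSR were listed but not above the blanks.

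Among receptors of cytokines and of the TNF family, 44 of 56 (78.6%) lay above the blanks and 26 (46.4%) above the olfactory receptor limit. Both shares were near the 81.8% and 47.9% of all genes. With the second deposited column subtracted, 29 lay above the blanks, beside 9506 of 17586 genes. TNFRSF12A, the receptor of the cytokine TWEAK, stood at 2468 and 1437 by its probes and TNFRSF1A, the main TNF receptor, at 472 and 14.3. Both chains of the interferon gamma receptor were seen, IFNGR2 at 322 and IFNGR1 at 250. The death receptors TNFRSF10B and FAS stood at 278 and 139. The interleukin 6 receptor chains IL6R and IL6ST stood at 136 and 81.2. IL1R2, the decoy receptor of interleukin 1, stood at 128, while the signalling receptor IL1R1 stood at 1.2 and was not above the blanks. CXCR4 and both interleukin 8 receptors, IL8RA (CXCR1) and IL8RB (CXCR2), had no deposited value.

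Receptors of TGF-beta, BMP, Wnt and Notch signals had 33 of 36 members (91.7%) above the blanks and 17 (47.2%) above the olfactory receptor limit. The shares of all genes were 81.8% and 47.9%. Subtracting the second deposited column left 18 above the blanks, beside 9506 of 17586 genes. None of the 36 exceeded 1000. The Wnt receptors FZD2 and FZD6 stood at 382 and 140, the co-receptor LRP6 at 189, BMPR2 at 125, TGFBR2 at 62.4 and TGFBR1 at 9.0. NOTCH1, which drives squamous differentiation, stood at 14.9 with all 3 probes above the blanks. Other surface proteins were brighter, with 30 of 42 (71.4%) above the olfactory receptor limit and a median of 132. F3 (tissue factor), the starter of coagulation, stood at 8608 at rank 61 (percentile 1.07 with the second deposited column subtracted), the tetraspanin CD63 at 6299, CAV1 (caveolin-1) at 5979 and 26 by its probes, the complement regulator CD59 at 2351 and the transferrin receptor TFRC at 1554. PLAUR, the receptor of urokinase, stood at 228 and F2RL1, a protease-activated receptor, at 702. OXTR and EDNRB had no deposited value.

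Few interleukins were bright. Of 49 interleukins and colony-stimulating factors, 36 (73.5%) lay above the blanks and 14 (28.6%) above the olfactory receptor limit. The shares of all genes were 81.8% and 47.9%. Subtracting the second deposited column left 23 above the blanks, beside 9506 of 17586 genes. The median was 8.72. MIF, a cytokine that most cells make, led at 8672. IL1B stood at 1663, CSF2 (GM-CSF) at 649, IL18 at 456, IL1A at 452, IL24 at 256 and the interleukin 1 antagonist IL1RN at 159. Interleukin 1 family ligands thus held 4 of these places. IL6 stood at 35.0 and CSF3 at 24.7, TSLP and IL33 were not above the blanks, and IL2, IL9 and IL10 had no deposited value.

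Chemokines had 31 of 37 members (83.8%) above the blanks and 10 (27%) above the olfactory receptor limit, beside 81.8% and 47.9% of all genes. With the second deposited column subtracted, 16 chemokines lay above the blanks, beside 9506 of 17586 genes. The neutrophil attractants IL8 (CXCL8), CXCL2 and CXCL1 stood at 880, 346 and 337. Chemokines that draw lymphocytes and monocytes spread from CCL3, at 469, and CXCL16, at 67.0, to CCL2 at 4.2, CCL5 at 4.1 and CXCL10 at 3.6, and CXCL12 and CXCL13 had no deposited value. Of TNF family ligands and interferons, 18 of 25 (72%) lay above the blanks and 8 (32%) above the olfactory receptor limit. Subtracting the second deposited column left 8 above the blanks. LTB stood at 103, TNFSF10 (TRAIL) at 93.6 and TNF at 80.5.

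Secreted growth factors and their antagonists had 61 of 71 members (85.9%) above the blanks and 31 (43.7%) above the olfactory receptor limit. Those shares were near the 81.8% and 47.9% of all genes, and 5 members exceeded 1000. FST (follistatin), which binds activin, stood at 5998, and INHBA, a subunit of activin, at 589. DKK1, a Wnt antagonist, stood at 3240, and DKK3, the gene that the study silenced in other cells, at 309 (percentile 87.8, or 2.1 with the second deposited column subtracted). Among 19 Wnt ligands, 18 (94.7%) lay above the blanks, beside 81.8% of all genes. Under the second deposited column as a background 9 did, beside 9506 of 17586 genes. The olfactory receptor limit was exceeded by 8, with WNT7A at 353 and WNT2 at 155. The EGF receptor ligands HBEGF, TGFA and EREG stood at 224, 50.3 and 36.0, and NRG1, a ligand of related receptors, at 390. PTHLH, the parathyroid hormone-like factor of squamous carcinomas, stood at 884, CYR61 (CCN1) at 1989, ADM (adrenomedullin) at 1003 and VEGF (VEGFA) at 92.0. HGF was not above the blanks.

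Matrix-degrading proteases were led by the urokinase system. PLAU (urokinase) stood at 7200 and 1609 by its probes. MMP1, an interstitial collagenase, stood at 3848 by its brightest probe and at 58.6 by the other, and at percentile 3.14 with the second deposited column subtracted. Other matrix metalloproteinases were lower, with MMP3 at 211, MMP7 at 172, MMP10 at 78.8, MMP14 at 17.8, MMP2 at 15.9, MMP13 at 6.7 and MMP9 at 3.8. The inhibitors CSTB, SERPINB2 and TIMP1 stood at 2301, 1890 and 507. Over the 42 proteases and inhibitors, 28 (66.7%) lay above the olfactory receptor limit, beside 47.9% of all genes, with a median of 91.9.

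**Figure D4:**
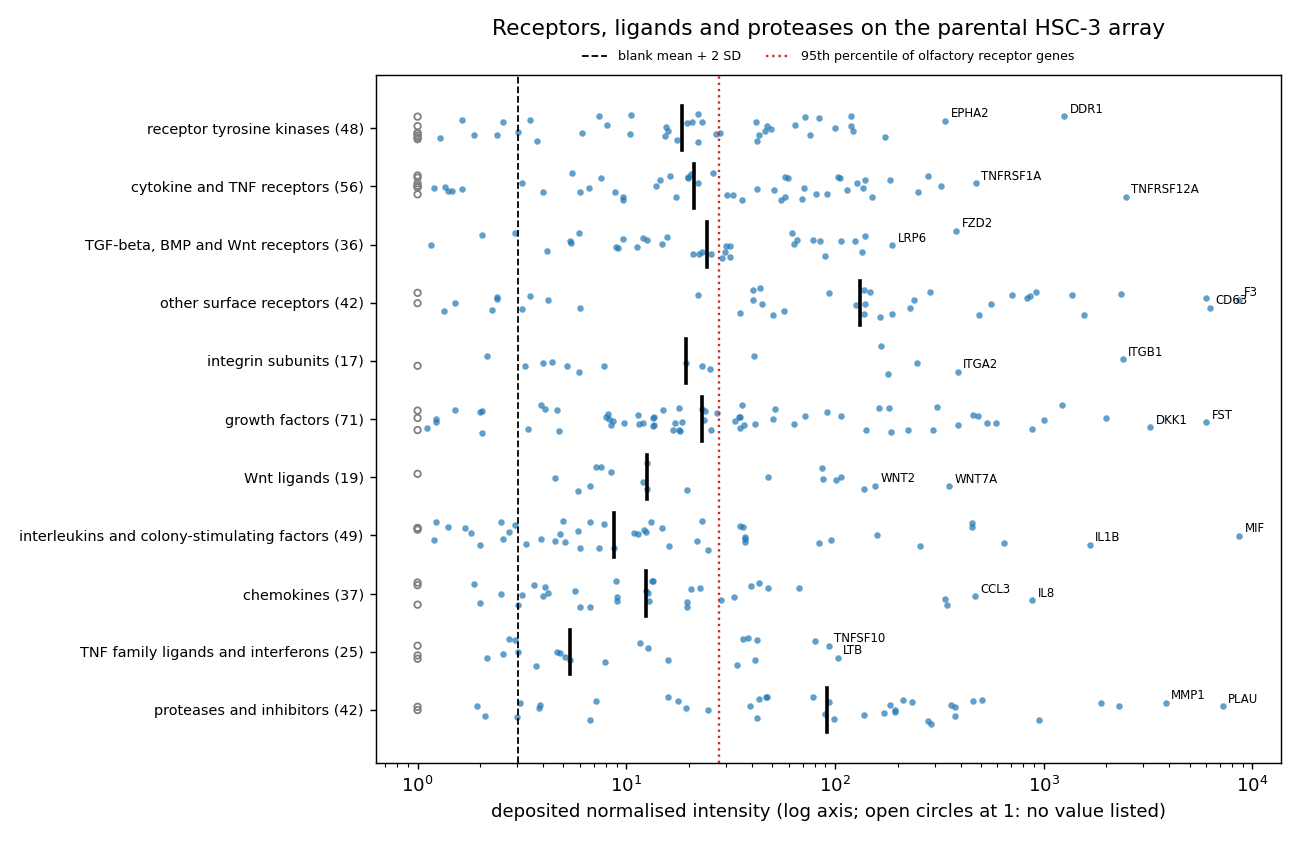
Receptors, ligands and proteases on the parental HSC-3 array. The x axis is the deposited normalised intensity on a log axis, each point is a gene, open circles at 1 have no listed value, the black bar is the list's median with unlisted values counted at 1, and the vertical lines are the blank limit (3.04) and the olfactory receptor limit (27.8). The brightest ligands are MIF, FST and DKK1, and other surface receptors have a median of 132 against 18.5 for receptor tyrosine kinases.

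Genes of antigen presentation by class I molecules were bright and those of class II were dim. All 14 measured class I genes lay above the blanks, 12 above the olfactory receptor limit, with B2M (beta-2-microglobulin) at 7439, HLA-F at 2835, HLA-E at 439 and the peptide transporter TAP1 at 376. Of 12 class II genes, 7 (58.3%) lay above the blanks (1 with the second deposited column subtracted) and 0 above the olfactory receptor limit. The shares of all genes were 81.8% and 47.9%. CD74, the invariant chain, stood at 27.2, and CIITA, the master regulator of class II, had no deposited value.

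Proliferation genes were bright. All 42 measured genes of the cell cycle and the p53 response lay above the blanks, beside 81.8% of all genes, with a median of 383. Under the second deposited column as a background, 32 did, beside 9506 of 17586 genes. RRM2, a subunit of ribonucleotide reductase, stood at 3253, CCNB1 (cyclin B1) at 2754, PCNA at 2341, CDC2 (CDK1) at 2033 and MKI67 at 281. CCND1 (cyclin D1), on a part of chromosome 11 often gained in oral carcinoma, stood at 6034, and its neighbours FADD, PPFIA1 and ANO1 at 510.5, 134 and 69.1, with the second probe of ANO1 at 8.66. CDKN2A, CDKN2B and MTAP, which lie together on chromosome 9 in a stretch often lost in these tumours, stood at 165, 139 and 376. An array of RNA does not give copy number. Genes of xenobiotic defence were also bright, with TXNRD1 at 2443, NQO1 at 1859 and GSTP1 at 1752, and a median of 196 over 34 genes.

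Markers of other cell types were mostly dim. Across 14 lists, 91 of 158 markers (57.6%, or 52 markers with the second deposited column subtracted) lay above the blanks and 23 (14.6%) above the olfactory receptor limit, beside 81.8% and 47.9% of all genes, with a median of 4.59. No deposited value was given for PTPRC (CD45) of all leukocytes, CD3G, CD4 and CD8A of T cells, MS4A1 of B cells, CD163 of macrophages, COL1A2, LUM and DPT of fibroblasts, TYR and TYRP1 of melanocytes, TEK and EMCN of endothelium, or ALB of liver. COL1A1 stood at 3.10 and COL3A1 at 1.51. Above the olfactory receptor limit lay 2 of 9 melanocyte, 2 of 14 fibroblast and 1 of 12 endothelial markers. The highest of these lists were SOX10 at 90.1, DCN at 83.5 with its second probe at 1.28, and ESAM at 77.9. The 6 markers over 100 were SERPINA1 at 602, CD28 at 386, DPPA4 at 185, CD79A at 166, CD68 at 143 and CD7 at 136. The second probe of CD28 had no deposited value. Whether RNA of other cells was in the sample was not tested further.

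Of 38 HOX genes, which pattern the body axis, 37 (97.4%) lay above the blanks and 14 (36.8%) above the olfactory receptor limit, beside 81.8% and 47.9% of all genes. With the second deposited column subtracted, 19 lay above the blanks, beside 9506 of 17586 genes. HOXB2 stood at 116 and 8.08 by its probes and HOXC6 at 109. Cancer-testis antigens are genes of the germ line that tumours can switch on. Of 15 measured, 12 lay above the blanks and 4 (26.7%) above the olfactory receptor limit. MAGEA4 stood at 405, MAGEA1 at 311 and MAGEA9 at 176, and the other 12 stood at 32.4 or below or had no deposited value.

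Promoters of 14011 of these genes were in the RefSeq promoter table (GRCh38.p14), each with 250 bases before and 50 after the start. The windows below cover 100 bases before to 10 after the start of 9 genes at different levels. They set bright genes beside KRT10, at the middle of all genes (percentile 50.2), and beside FLG and PTPRC, with no deposited value. Capitals mark the TATA letters, TATAAA, and the GC box, GGGCGG, each on either strand, so that the reverse complement of either motif is marked too.
MT2A, chr16:56608484-56608593, plus strand: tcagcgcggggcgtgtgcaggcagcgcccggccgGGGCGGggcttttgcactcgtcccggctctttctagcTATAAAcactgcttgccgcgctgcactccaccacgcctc
S100A2, chr1:153565835-153565944, minus strand: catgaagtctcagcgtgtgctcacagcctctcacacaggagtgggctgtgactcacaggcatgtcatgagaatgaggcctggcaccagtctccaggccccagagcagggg
KRT5, chr12:52520385-52520494, minus strand: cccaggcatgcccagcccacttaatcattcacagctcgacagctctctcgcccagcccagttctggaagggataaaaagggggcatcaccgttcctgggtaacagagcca
F3, chr1:94541750-94541859, minus strand: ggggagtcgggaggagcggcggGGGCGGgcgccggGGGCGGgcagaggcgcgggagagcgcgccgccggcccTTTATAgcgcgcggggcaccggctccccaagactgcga
DKK1, chr10:52314181-52314290, plus strand: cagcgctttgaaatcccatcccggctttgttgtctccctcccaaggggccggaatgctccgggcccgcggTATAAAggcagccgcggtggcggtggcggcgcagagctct
CXCL8, chr4:73740469-73740578, plus strand: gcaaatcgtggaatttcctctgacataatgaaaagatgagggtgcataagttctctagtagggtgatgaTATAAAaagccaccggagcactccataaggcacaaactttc
KRT10, chr17:40822605-40822714, minus strand: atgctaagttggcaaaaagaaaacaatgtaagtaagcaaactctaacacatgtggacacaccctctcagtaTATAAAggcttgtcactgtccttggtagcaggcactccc
FLG, chr1:152325230-152325339, minus strand: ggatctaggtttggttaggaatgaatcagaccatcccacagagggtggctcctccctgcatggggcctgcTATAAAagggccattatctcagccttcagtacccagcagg
PTPRC, chr1:198638940-198639049, plus strand: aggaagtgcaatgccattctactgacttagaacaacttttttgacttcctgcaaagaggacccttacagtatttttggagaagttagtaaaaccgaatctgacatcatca
CpG dinucleotides were counted over the 300 bases of each promoter in the table. MT2A held 37 and F3 38, and both printed windows carry TATA letters and a GC box. DKK1 held 20, S100A2 5, KRT5 7 and CXCL8 4, and KRT10, FLG and PTPRC held 1 each. S100A2 (19762) and KRT5 (4989) were thus bright with few CpGs, and FLG, with no deposited value, carries the same TATA letters as DKK1. Neither motif occurs in the windows of S100A2, KRT5 and PTPRC. These are matches of letters, not measured binding sites.

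Over all matched genes, promoters of genes not above the blanks held fewer CpGs. The median was 9 (quartiles 3 and 25) for 2444 such genes, 20 for 4561 genes between the limits, and 26 for 574 genes over 1000. Above the olfactory receptor limit the median did not rise further, with 26 up to 100, 27 from 100 to 1000 and 26.5 in the 78 matched genes of the top 100. The GC box was in 39% of promoters of genes not above the blanks, 71.3% of those from 100 to 1000, and 60.2% of all matched promoters. TATA letters were in 15.7%, 5.67% and 9.06% of these and in 17.9% of the top 100. They were in 10.3% of the 574 promoters of genes over 1000, which include the top 100, and in 10% of the 4561 between the limits. The high share at the upper end thus rested on the 78 promoters of the top 100. This is a description of the classes, with no test.

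**Figure D5:**
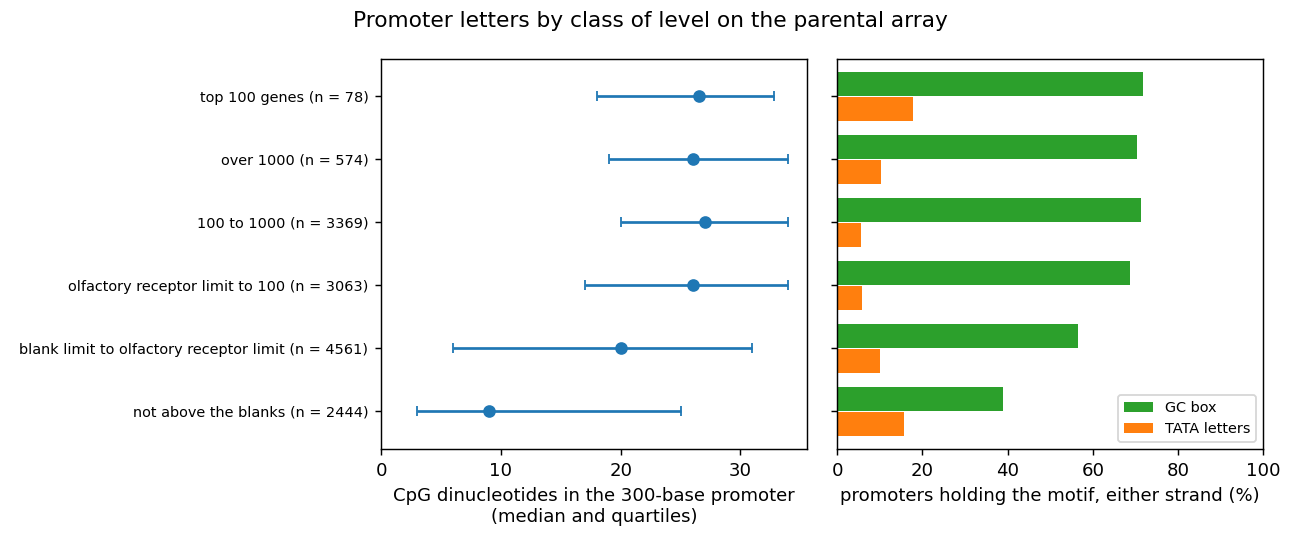
Promoter letters by level on the parental HSC-3 array. The left panel gives the median and quartiles of CpG dinucleotides in the 300-base promoter, and the right panel the percentage of promoters with the GC box or the TATA letters on either strand. Genes over 1000 include the top 100. The median CpG count is 9 in genes not above the blanks and 26 in genes over 1000.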

How the data were processed

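Total RNA of parental HSC-3 cells was measured on 1 array, labelled with Cy5. The authors' deposited table gives normalised intensity. It is a straight line of the spot intensity of that array (the spot median minus 49.98, divided by 1.41), with no value where a spot lies near the blanks. That relation was found by fitting both columns, since no label describes the normalisation. Per the file headers, the spot intensity is the median at 635 nm, joined from scans at 3 gains. The scanner software is not given in the sources used here. Another deposited intensity column, named as a background, followed its own spot (r = 0.94 across spots) and was not subtracted. The values of 2 other sample columns were not used.

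A probe was above the blanks where its spot exceeded the blank mean (50.1) plus 2 SD (1 SD was 2.08), which gave a limit of 54.3. Probes flagged as not good, 3 in number, were left out. Symbols were those of GEO's platform annotation, with 14969 current in RefSeq (GRCh38.p14), 2531 a single older synonym and 86 without a single match, and 4224 probes had none. A gene took its brightest probe, and its percentile is its place among 17586 genes. No test and no error between samples could be had from 1 array, whose number limits the precision.

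The named genes were the 40 brightest, up to 10 of each of 46 lists, and members not above the blanks where few or defining, and not all that the rule allows are described. The members and lists were chosen with earlier results of these data known. The detection rule was tested on simulated data with normal noise of the blank SD. Such data cannot show how the rule performs on the spots of this array. The alternatives were other limits, the second column as background, normexp with an offset of 50 (limma 3.58.1, R 4.3.3), the scanner scale and other probes of a gene. Tables were made with pandas 2.3.3 and numpy 2.4.6 in Python 3.11.15.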

Additional observations from a re-analysis of the deposited data

Results flagged for a closer look

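Of the gene probes with no gene symbol in the annotation used, 3027 of 4224 (71.7%) lay above the blanks, beside 78.5% of all gene probes. They were singled out as signal in data that the account of named genes does not use. The brightest stood at 21010, and 230 exceeded 1000.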

How the results depend on the processing

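The second deposited column, subtracted as a background, lowered the counts above the blanks to 12359 probes, 9506 genes, 52 markers of other cell types and 541 genes over all lists. The olfactory receptor limit, chosen after the data were seen, left 10417 probes, 8420 genes, 17 keratins, 23 markers of other cell types and 467 genes over all lists. Under the other alternatives the genes above the blanks ranged from 13499 to 15943 and the probes from 17823 to 21714. Of 416 recomputed counts of list members, 350 stayed within 1.5 times and 66 did not, 35 of them under the olfactory receptor limit and 25 under the second column. Places of 34 named genes were recomputed 136 times. The scanner scale and normexp keep the order of the spots, so places could not move under them. Of the 136 places, 6 moved by more than 17.4 percentile points, the SD of the place between the probes of a gene. All 6 did so under the second column, where F3 fell to percentile 1.07, MMP1 to 3.14, DKK3 to 2.1 and TP63 to 24.2, while KRT16 rose to 88.1 and FLG to 23.2. The correlation of that column with the spot was 0.94 across spots, and the cause of these moves was not tested. No paired analysis was possible because each condition had 1 array. With 1 array, a level near the limit of 3.04 cannot be told from the blanks.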
